A study of Homo sapiens with 9 samples.

Results

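The genes of fibroblast growth factor (FGF) signalling and of its feedback control were followed in cranial neural crest cells (CNCCs) from which the transcription factor SOX9 was removed. The set was chosen by name, though with earlier results of these data known, and held 38 of the 18970 gene symbols counted. It comprised 9 secreted ligands, 3 intracellular FGF factors, 7 receptors and FRS adaptors, 6 SPRY and SPRED genes, 6 DUSP phosphatase genes, 3 ETV genes and 4 other feedback genes. Of these, 32 reached 1 CPM (counts per 1000000 reads of the library) of T>C reads in at least 3 samples and were tested, among 12037 genes. The other 6 did not reach this minimum and were not tested, namely FGF1, FGF5, FGF8, FGF19, FGF12 and FRS3, which had between 0 and 15 T>C reads summed over all samples. In total reads 27 of the 38 were tested, among 11710 genes.

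The CNCCs, at passage 4, had been differentiated from H9 cells, a widely used line of human embryonic stem cells. All samples came from S9CC13 and S9CC47, a pair of clones in which both SOX9 alleles encode a C-terminal tag of FKBP12-F36V, mNeonGreen and V5. The 9 samples fell into 3 groups by time with the degrader dTAGV-1, which directs the tagged protein to a ubiquitin ligase. The labels give 500 nM dTAGV-1 for all 9 samples, with a SOX9 level of 100% at 0h and of 0% at 3h and 24h. The protocol names DMSO as vehicle control, and whether the 0h samples received it is not stated sample by sample. Each group had 3 samples, 1 from each of the cultures S9CC13_R6, S9CC47_R5 and S9CC47_R6, named by clone and differentiation batch, and values per sample are given below in that order. Untagged cells treated with dTAGV-1 were not analysed here. RNA made in the last 2 h was marked with 100 uM 4-thiouridine (4sU), and 4sU positions read as T>C conversions (SLAM-seq). For the 3h group that window covered all but the first 1 h of treatment, and for the 24h group it began at 22 h. T>C reads therefore report mostly new RNA, and total reads report new and older RNA together. All groups were kept in medium with added basic FGF, the FGF2 protein, and with EGF. The p-values below measure the spread left after batch and 1 surrogate variable, an unlabelled factor estimated from the counts, were fitted. In the fit of T>C reads that factor was lowest (-0.71) in S9CC13_R6 at 3h, the library with the lowest share of T>C reads (15.9%). It was highest (0.54) in S9CC47_R6 at 24h, the library with the highest share (21.3%). What the factor stands for was not tested. Pairing by culture was not part of the main fit. The 3 cultures stem from 2 clones of 1 cell line.

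FGF ligands bind FGF receptors together with heparan sulphate, and the receptors signal through the FRS adaptors and RAS to the kinase ERK. ERK activity induces genes that restrain the same pathway. SPRY and SPRED proteins act between receptor and RAF, DUSP phosphatases remove the activating phosphates from MAP kinases, and ETV1, ETV4 and ETV5 are ETS family transcription factors induced by FGF signalling. In facial development FGF signalling supports the survival and outgrowth of neural crest mesenchyme. Levels below are RNA levels and say nothing direct about ERK activity.

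Counted in units of 1000000 reads, libraries held 17.0 to 28.8 total reads (median 21.4), of which 3.13 to 5.48 were T>C reads (median 3.96). The T>C share of a library was 18.5% to 20.1% at 0h, 15.9% to 19.5% at 3h and 19.8% to 21.3% at 24h. SOX9 RNA itself is no check of the depletion, which acts on the protein. It went from 2302 to 2414 T>C CPM at 0h to 3584 to 4442 at 3h and 4854 to 5735 at 24h. Of 10 CNCC markers all 10 were tested, and the summed total reads of the 9 other than SOX9 went from 3379 to 3432 CPM at 0h to 3694 to 3844 at 3h and 4376 to 4732 at 24h. Cartilage markers (7 listed) went from 430 to 471 CPM at 0h to 387 to 449 at 3h and 216 to 284 at 24h. Of the 6 pluripotency markers, POU5F1 and NANOG were below the minimum and TDGF1 was at 0 in all samples, while LIN28A, DPPA4 and L1TD1 were read. Together the 6 gave 811 to 887 CPM at 0h, 741 to 810 at 3h and 741 to 819 at 24h. Neural markers (7 listed, SOX1 at 0) went from 13.3 to 19.2 CPM at 0h to 15.0 to 17.8 at 3h and 10.5 to 12.6 at 24h, where every sample was below the 0h group. Of the 3 neural markers tested in total reads only DCX was called at 24h, downward. The median log2 fold change of the 3 was 0.615, so the fall of the sum does not describe them all. The melanocyte and Schwann markers (6 listed) went from 4.78 to 7.26 CPM at 0h to 5.09 to 7.07 at 3h and 2.69 to 3.93 at 24h. The part of these shifts in the results below was not tested. Fewer cells of a type and less RNA per cell cannot be told apart in such bulk samples.

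After SOX9 removal the genes called were 1 ligand gene, FGF18, and feedback genes. At 3h 6 of the 32 genes tested changed in T>C reads, with FGF18, DUSP4 and DUSP7 up and PHLDA1, SPRY4 and DUSP6 down (DESeq2 Wald test with batch and 1 surrogate variable, Benjamini-Hochberg adjusted p under 0.1). Over all genes tested, 1.79% were called at 3h. At 24h 10 of 32 changed, against 4.98% of all genes. FGF18, DUSP4, DUSP5, DUSP6, DUSP7, FLRT3, SPRED1 and SPRY1 were up, and PHLDA1 and SPRY4 were down. Between 3h and 24h 5 of 32 changed, against 1.14% of all genes, and all 5 (FGF18, DUSP6, FLRT3, IL17RD and SPRY1) were higher at 24h. The comparisons at 3h and 24h share the 0h samples and are not independent of each other. These counts rest on all 3 cultures together. With 1 culture left out, they fell to 3 or 4 genes at 3h (3 without S9CC13_R6 and 3 without S9CC47_R6), to 5, 5 and 1 at 24h (without S9CC13_R6, S9CC47_R5 and S9CC47_R6) and to 2, 3 and 2 between 3h and 24h, with FGF18 the gene left at 24h without S9CC47_R6. Such fits hold fewer samples, and the share of all genes called in them is not given here. Whether these genes lost calls more than other genes did was not tested.

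In total reads 6 of 27 genes changed at 3h, the same 6 as in T>C reads, against 1.89% of all genes. With culture as a block DUSP6 and DUSP7 lost these calls, which left 4. At 24h 14 of 27 changed, 10 up and 4 down, against 15.0% of all genes. DUSP1 and IL17RD were added to the rises and ETV5 and FLRT2 to the falls. That count was 4, 7 and 5 without S9CC13_R6, S9CC47_R5 and S9CC47_R6, and 8 in a fit of only the 6 samples compared. Between 3h and 24h 6 of 27 changed, all upward, against 5.39% of all genes, with DUSP5 added. Over the 32 genes the median size of the log2 fold change in T>C reads, sign ignored, was 0.28 (3h) and 0.50 (24h), against 0.15 and 0.20 over all genes tested. The signed median over the 32 was -0.01 at 3h and 0.20 at 24h, against -0.01 and 0.00 over all genes. By these medians the fitted changes were larger than those of all genes at both times, and they lay on both sides of 0. Low counts widen fitted values, depth and error were not matched, and the set was chosen with earlier results known.

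**Figure D1:**
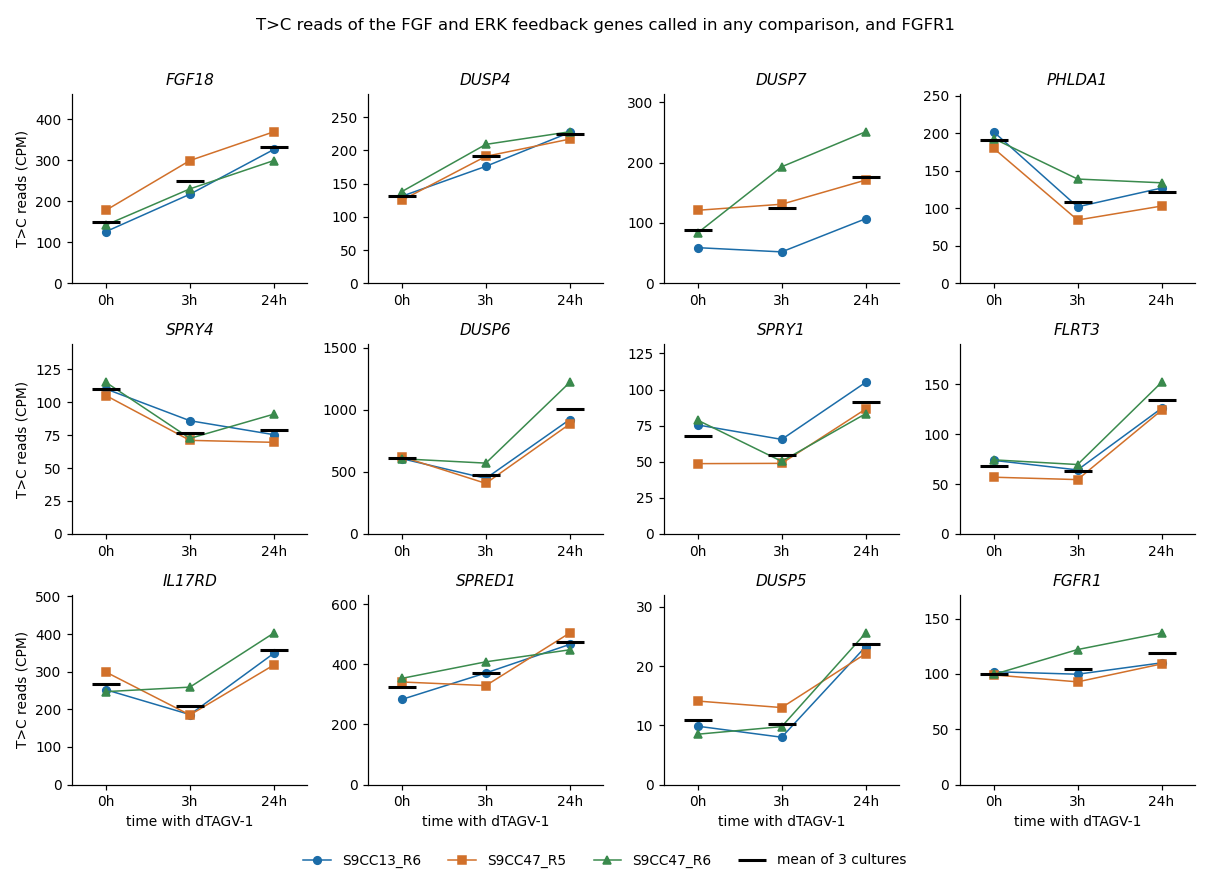
T>C reads in CPM (y axes, each from 0) at 0h, 3h and 24h of dTAGV-1 for the 11 genes called in any comparison of T>C reads, and for FGFR1, which was not called. Lines join the samples of 1 culture and black bars are means of 3 cultures. FGF18 and DUSP4 lie above their 0h samples in every culture at both times, PHLDA1 and SPRY4 lie below, and DUSP6 falls at 3h and passes its starting level at 24h.

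Promoters are printed for the steepest early rise, FGF18, PHLDA1, the steepest early fall among genes that passed the test, and the gene that changed in both directions, DUSP6. Each runs from 250 bases before to 50 bases after the RefSeq start on GRCh38.p14. Capitals mark the SOX core ACAAT or its reverse complement ATTGT, and the ETS core CCGGAA or its reverse complement TTCCGG.

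FGF18 promoter, chr5:171419397-171419696, + strand: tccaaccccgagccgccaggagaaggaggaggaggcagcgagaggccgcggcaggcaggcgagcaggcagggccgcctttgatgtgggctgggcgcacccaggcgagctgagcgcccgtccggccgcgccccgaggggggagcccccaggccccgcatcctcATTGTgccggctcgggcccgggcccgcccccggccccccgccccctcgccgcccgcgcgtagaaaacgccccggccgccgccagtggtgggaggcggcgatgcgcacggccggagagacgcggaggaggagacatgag

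PHLDA1 promoter, chr12:76031727-76032026, - strand: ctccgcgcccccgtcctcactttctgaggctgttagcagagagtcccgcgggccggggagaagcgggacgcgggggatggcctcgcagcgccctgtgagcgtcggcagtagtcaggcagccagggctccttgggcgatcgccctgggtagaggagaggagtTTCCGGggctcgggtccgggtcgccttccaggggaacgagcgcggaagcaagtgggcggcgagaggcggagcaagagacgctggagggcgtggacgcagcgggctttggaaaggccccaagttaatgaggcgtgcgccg

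DUSP6 promoter, chr12:89352452-89352751, - strand: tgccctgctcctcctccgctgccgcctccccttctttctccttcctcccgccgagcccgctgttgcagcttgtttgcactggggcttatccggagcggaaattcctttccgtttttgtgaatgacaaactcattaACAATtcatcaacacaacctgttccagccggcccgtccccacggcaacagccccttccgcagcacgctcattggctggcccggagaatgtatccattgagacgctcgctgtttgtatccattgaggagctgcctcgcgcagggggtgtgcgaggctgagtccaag

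FGF18 and DUSP6 hold the SOX core once each and no ETS core, and PHLDA1 holds the ETS core once and no SOX core. Of all 35116 promoters that RefSeq lists, 27.4% hold the SOX core on either strand and 17.2% hold the ETS core. Promoters were listed for 30 of the 38 genes, 57 promoters in all, since several genes have more than 1 start. Of these 57, 10 hold the SOX core, in 7 genes, and 7 hold the ETS core, in 5 genes. The AP-1 site TGACTCA was in 4 of the 57 and in 4.95% of all promoters, and the CRE letters TGACGTCA were in 1 of the 57, that of DUSP1, and in 1.85% of all promoters. Both strands were read for each motif, and the letters describe the windows only.

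FGF18, a secreted ligand known from skeletal growth and from craniofacial development, rose at both times. The gene lies at chr5:171419647-171457626 on the + strand (hg38), with the last exon of its canonical transcript at chr5:171456539-171457626. Its T>C reads were 126, 178 and 142 CPM at 0h, 217, 299 and 230 at 3h and 326, 369 and 299 at 24h. No sample at 3h or 24h overlapped the 0h group, while the 3h and 24h groups touched at 299. The log2 fold change was 0.75 ± 0.10 (SE, n = 3 a group; DESeq2 adjusted p = 2.07e-10) at 3h and 1.14 ± 0.11 (adjusted p = 1.73e-23) at 24h, that is 1.69-fold and 2.21-fold. From 3h to 24h it rose by a further 0.39 ± 0.11 (adjusted p = 0.0636 in DESeq2), a call that was lost without any 1 culture (0.34 to 0.57). Within cultures the 3h rise was 0.79, 0.78 and 0.68 on the log2 scale. Its total reads moved by 0.79 ± 0.09 at 3h and 1.17 ± 0.09 at 24h, and its reads without a conversion by 0.83 ± 0.10 and 1.17 ± 0.10. The 3 measures gave near-equal changes, and FGF18 stayed called at 3h and 24h in every alternative fit of T>C and of total reads.

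The other ligands were low or did not pass the test. FGF2, whose protein is also in the medium, had T>C reads of 24.0, 26.1 and 25.0 CPM at 0h, 23.3, 21.3 and 31.6 at 3h and 32.3, 26.4 and 40.9 at 24h. Its log2 differences were 0.08 ± 0.22 and 0.24 ± 0.22 (95% intervals -0.35 to 0.50 and -0.19 to 0.68). FGF2 overlaps NUDT6 on the opposite strand in its last exon, so that these reads may hold antisense RNA if strand was not used in counting. FGF7, FGF9 and FGF10 stood between 0.25 and 5.75 CPM in all samples. Their standard errors against 0h ran from 0.81 to 1.03 on the log2 scale, and no change was detectable at this depth. FGF11 and FGF13, intracellular factors that bind sodium channels and microtubules rather than FGF receptors, were not called either. FGF13 had T>C reads of 3.52 to 5.81 CPM at 0h, 2.27 to 8.34 at 3h and 1.39 to 2.74 at 24h, a log2 difference of -1.46 ± 0.63 at 24h with an adjusted p of 0.243 in DESeq2.

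No receptor or FRS adaptor was called at either time or between the times, in T>C or in total reads. Over all genes tested the shares called were 1.79%, 4.98% and 1.14% in T>C reads (3h, 24h, and 24h against 3h). In total reads they were 1.89%, 15.0% and 5.39%. With so few genes, 0 of 6 is near these shares and does not set the class apart. Of the 6 tested, 1 had an unadjusted p under 0.05 at 3h (FGFR3), 0 at 24h and 1 between 3h and 24h in DESeq2, and edgeR's quasi-likelihood test also called 0 in each comparison. FGFR1, the receptor tyrosine kinase that mediates much of the FGF response of mesenchyme, had T>C reads of 102, 99.1 and 99.5 CPM at 0h, 99.7, 92.8 and 122 at 3h and 110, 109 and 137 at 24h. At 24h all 3 samples lay above the 0h group, though the fitted change was 0.15 ± 0.13 with an interval of -0.10 to 0.40 (DESeq2 adjusted p = 0.718). At 3h the interval was -0.14 to 0.35. FRS2, the adaptor that links FGF receptors to RAS, stood between 74.3 and 93.3 CPM in all samples, with log2 differences of 0.01 ± 0.14 and 0.08 ± 0.14. For both genes a change of 1.5-fold lay outside the 95% intervals at both times. FGFR2 ran from 9.90 to 31.8 CPM and FGFRL1, a receptor without a kinase domain, from 8.11 to 20.8 CPM. FGFR3 and FGFR4 were lower still, at 0.58 to 5.32 and 0 to 1.73 CPM, and their standard errors of 0.72 to 1.56 leave wide room.

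**Figure D2:**
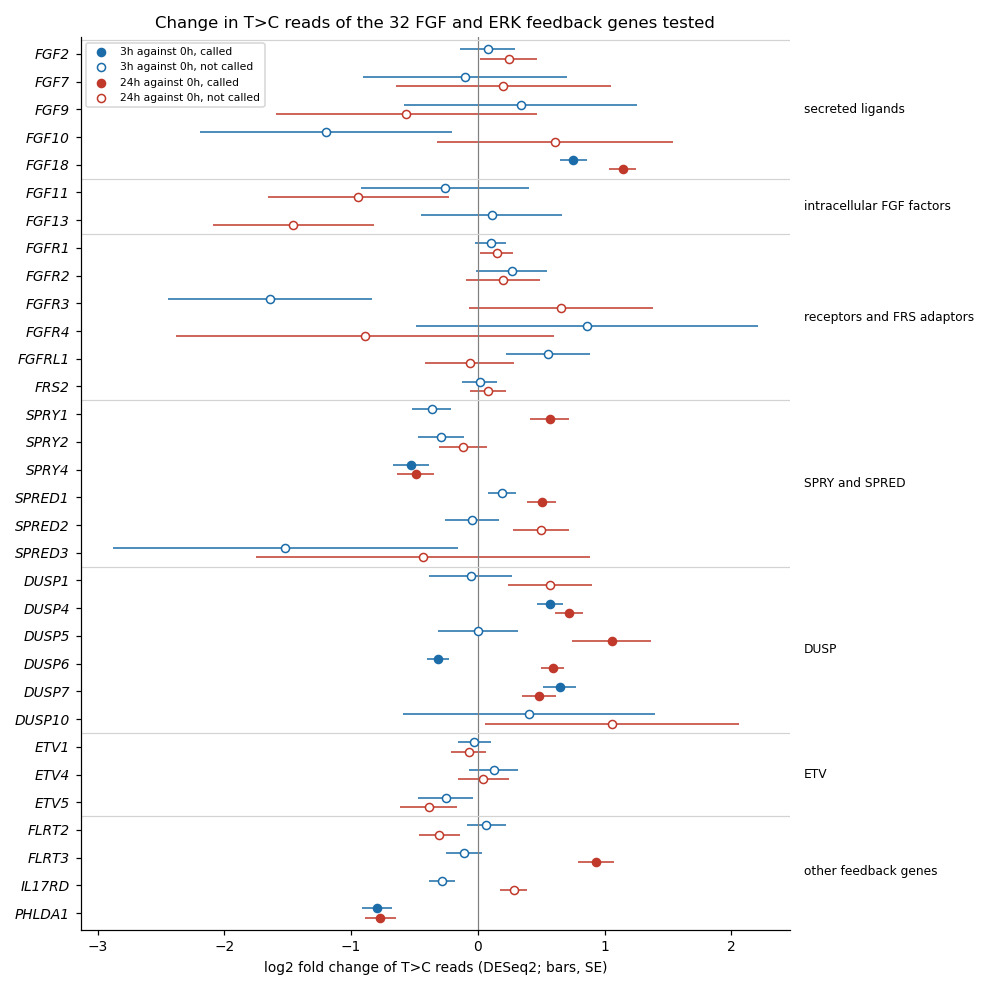
Log2 fold change of T>C reads (x axis) for the 32 genes tested, in rows grouped by class. Blue points compare 3h with 0h and red points 24h with 0h, filled where the adjusted p was under 0.1, and bars are SE. The filled points lie among FGF18, the SPRY and SPRED genes, the DUSP genes, FLRT3 and PHLDA1, and all receptor, ETV and intracellular factor points are open.

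The SPRY and SPRED genes, inhibitors of the step from receptor to RAF, moved in different directions. SPRY4, at chr5:142310427-142326455 on the - strand, had T>C reads of 110, 105 and 115 CPM at 0h, 85.9, 71.0 and 72.5 at 3h and 75.3, 69.5 and 90.9 at 24h. All 6 treated samples were below all 0h samples. The log2 fold change was -0.53 ± 0.14 at 3h (DESeq2 adjusted p = 0.0151) and -0.49 ± 0.15 at 24h (adjusted p = 0.0275), and no change between 3h and 24h was seen beyond the error (0.04 ± 0.16). Leaving out any single culture ended both calls, with log2 values then between -0.61 and -0.40. Total reads of SPRY4 gave -0.61 ± 0.12 and -0.58 ± 0.12.

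SPRY1, at chr4:123396795-123403760 on the + strand, did not fall significantly at 3h and was above 0h at 24h. It had 75.5, 48.7 and 78.8 T>C CPM at 0h, 65.5, 48.9 and 50.3 at 3h and 105, 86.5 and 83.3 at 24h. The 0h and 3h groups overlapped, and the 24h group lay above both. The log2 values were -0.36 ± 0.15 at 3h (adjusted p = 0.454), 0.57 ± 0.16 at 24h (adjusted p = 0.0110) and 0.93 ± 0.17 between them (adjusted p = 3.01e-05, all from DESeq2). The DESeq2 call at 24h against 0h was lost with culture as a block (0.43, adjusted p = 0.155), without the surrogate variable, in a fit of only the 6 samples compared and without any 1 culture. The step from 3h to 24h was lost without S9CC13_R6 (1.08) and without S9CC47_R6 (0.62). In total reads the 24h and 0h groups of SPRY1 overlapped, with changes within cultures of 0.35, 0.57 and -0.18. Its call in total reads at 24h was lost under 5 of 11 alternatives, among them culture as a block. SPRED1, at chr15:38252836-38357249, had 283, 341 and 353 CPM at 0h, 371, 329 and 408 at 3h and 466, 504 and 448 at 24h. It rose by 0.50 ± 0.11 at 24h (DESeq2 adjusted p = 6.02e-04), a call that leaving out any culture ended while the value stayed between 0.45 and 0.59. SPRY2, SPRED2 and SPRED3 were not called in T>C reads. SPRED2 stood at 23.5 to 34.8 CPM at 0h and 37.5 to 62.3 at 24h, a log2 difference of 0.50 ± 0.22 that had an adjusted p of 0.248 in DESeq2. It passed in edgeR, and in DESeq2 without the surrogate variable (0.69), with culture as a block (0.71) and in the 6 samples compared (0.70).

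DUSP4 and DUSP6 remove phosphates from ERK, DUSP4 in the nucleus and DUSP6 in the cytoplasm. DUSP4 had T>C reads of 131, 125 and 138 CPM at 0h, 176, 191 and 209 at 3h and 227, 217 and 228 at 24h. The 3 groups did not overlap in any pair. The rise was 0.57 ± 0.11 at 3h (adjusted p = 1.27e-05) and 0.72 ± 0.11 at 24h (adjusted p = 8.56e-09 in DESeq2), and the 3h to 24h step of 0.15 ± 0.12 did not pass the test. Without S9CC47_R6 both T>C calls were lost, at values between 0.51 and 0.85 over all alternatives, while the calls in total reads were kept in each alternative.

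DUSP6, at chr12:89347235-89352501 on the - strand, is a cytoplasmic ERK phosphatase often read as a gauge of FGF signalling. Its T>C reads were 606, 622 and 605 CPM at 0h, 447, 407 and 570 at 3h and 921, 885 and 1220 at 24h. Every 3h sample was under the 0h group and every 24h sample was above it. The fall at 3h was small, -0.32 ± 0.09 (DESeq2 adjusted p = 0.0227), and within cultures it was -0.43, -0.59 and -0.11. At 24h DUSP6 was 0.59 ± 0.09 above 0h (adjusted p = 1.25e-08) and 0.91 ± 0.10 above 3h (adjusted p = 7.18e-17 in DESeq2). Within cultures the latter step was 1.03, 1.08 and 1.10. The step from 3h to 24h was called in every alternative fit in both measures. The T>C call at 24h against 0h was lost without S9CC47_R6 (0.55). The 3h fall was lost in DESeq2 without the surrogate variable (-0.37, adjusted p = 0.268), in a fit of the 6 samples compared (-0.32), without S9CC13_R6 (-0.37) and without S9CC47_R5 (-0.25). In total reads the 3h fall was -0.30 ± 0.08 (DESeq2 adjusted p = 0.0294) and was lost with culture as a block (-0.37, adjusted p = 0.165), without the surrogate variable and without S9CC47_R5.

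DUSP7, a further cytoplasmic ERK phosphatase, was less even across cultures. Its T>C reads were 59.1, 121 and 83.6 CPM at 0h, 52.1, 131 and 193 at 3h and 107, 171 and 251 at 24h. The groups overlapped in all 3 comparisons, and within cultures the 3h differences were -0.18, 0.14 and 1.19. The fitted rises of 0.64 ± 0.13 at 3h (adjusted p = 8.36e-05) and 0.48 ± 0.13 at 24h (adjusted p = 0.0106 in DESeq2) include a correction by the surrogate variable. Without S9CC47_R6 the 3h value was 0.01 in T>C reads and -0.22 in total reads, and with culture as a block it was 0.38 (DESeq2 adjusted p = 0.999). The 3h call in T>C reads was also lost without S9CC13_R6 (0.61) and without the surrogate variable (0.54). At 24h all 3 cultures were above their own 0h sample, by 0.84, 0.49 and 1.56. The 24h value was 0.94 with culture as a block, which passed (DESeq2 adjusted p = 0.0594), and 1.03 without the surrogate variable, which did not (adjusted p = 0.41). It did not pass without S9CC13_R6 (0.51), S9CC47_R5 (0.29) or S9CC47_R6 (0.94), nor under a filter on the mean count of 20 (0.33).

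DUSP5, a nuclear ERK phosphatase, had 9.85, 14.1 and 8.50 T>C CPM at 0h, 7.99, 13 and 9.78 at 3h and 23.3, 22.1 and 25.6 at 24h. It was 1.06 ± 0.31 higher at 24h (adjusted p = 0.0240), and the rise from 3h of 1.06 ± 0.34 had an adjusted p of 0.129 in DESeq2 for T>C reads and passed in total reads (0.91 ± 0.28, adjusted p = 0.0338). In T>C reads that rise passed in edgeR, without the surrogate variable and with culture as a block. The 24h call in T>C reads and the step in total reads were lost without any 1 culture. DUSP1, a nuclear phosphatase of several MAP kinases and an immediate-early gene, had 9.35 to 12.6 CPM at 0h and 14.8 to 21.5 at 24h, a log2 difference of 0.57 ± 0.33 with an adjusted p of 0.469 in DESeq2. A long non-coding gene overlaps its last exon on the opposite strand. DUSP10 stood between 0.29 and 2.28 CPM. Of the 5 DUSP genes tested in total reads, all 5 were called upward at 24h, against 15.0% of all genes in either direction, DUSP1 at an adjusted p of 0.0982 in DESeq2. Without S9CC13_R6 the calls of DUSP1, DUSP5, DUSP6 and DUSP7 were lost and that of DUSP4 was left. DUSP1 and DUSP5 were also lost without S9CC47_R5 or S9CC47_R6, and DUSP7 without S9CC47_R5.

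The ETV genes were not called in T>C reads in any comparison in DESeq2, with 0 of 3 under an unadjusted p of 0.05, while edgeR called ETV5 down at 24h. Over all genes DESeq2 called 1.79%, 4.98% and 1.14% (3h, 24h, and 24h against 3h), so 0 of 3 does not set the class apart. ETV4 had 33.6 to 43.1 CPM at 0h, 38.3 to 45.6 at 3h and 36.3 to 41.6 at 24h, and its last exon overlaps DHX8 on the opposite strand. ETV1 ran from 102 to 165 CPM over all samples, with log2 differences of -0.03 ± 0.13 and -0.07 ± 0.14 and intervals of -0.29 to 0.23 and -0.34 to 0.20. ETV5 had 256, 275 and 282 CPM at 0h, 217, 250 and 212 at 3h and 257, 162 and 209 at 24h, a difference of -0.39 ± 0.23 at 24h (adjusted p = 0.472 in DESeq2). In total reads ETV5 fell at 24h by 0.36 (SE 0.12, DESeq2 adjusted p = 0.0252). That call was lost without the surrogate variable (-0.33), in the 6 samples compared (-0.41), without S9CC47_R5 (-0.15) and without S9CC47_R6 (-0.07).

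PHLDA1, a pleckstrin homology-like protein induced by growth factors and by ERK, showed the largest fall of the set that passed the test at 3h. It lies at chr12:76025447-76031776 on the - strand. Its T>C reads were 202, 180 and 193 CPM at 0h, 102, 84.4 and 139 at 3h and 127, 103 and 134 at 24h. The treated samples were all below the 0h group. It fell by 0.80 on the log2 scale at 3h (SE 0.12, adjusted p = 5.20e-09) and by 0.77 at 24h (SE 0.12, adjusted p = 6.04e-08 in DESeq2), that is 1.74-fold and 1.70-fold. The total reads fell by 0.83 and 0.83 (SE 0.11 and 0.11), and the reads without a conversion by 0.76 and 0.97 (SE 0.14 and 0.15). The 3h call held in every alternative fit, and the 24h call in T>C reads was lost without S9CC47_R6.

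FLRT3 and IL17RD are membrane proteins, FLRT3 a binding partner of FGF receptors and IL17RD (SEF) an inhibitor of FGF signalling. FLRT3, at chr20:14322985-14337614 on the - strand, had 73.8, 56.9 and 74.3 T>C CPM at 0h, 64.2, 54.5 and 69.6 at 3h and 126, 124 and 152 at 24h. The 24h samples stood apart from an overlapping 0h and 3h. The log2 values were -0.11 ± 0.14 at 3h (adjusted p = 0.992), 0.93 ± 0.14 at 24h (adjusted p = 1.63e-08) and 1.04 ± 0.16 between them (adjusted p = 3.52e-08 in DESeq2), both calls being lost in T>C reads without S9CC47_R6. FLRT3 lies within MACROD2, on the opposite strand, and the strand setting of the counting is not given in the sources used here. IL17RD, at chr3:57089982-57170306, had 252, 299 and 247 CPM at 0h, 186, 185 and 259 at 3h and 349, 318 and 403 at 24h. It was called between 3h and 24h, at 0.57 ± 0.12 (adjusted p = 2.50e-04 in DESeq2). Its differences from 0h of -0.29 ± 0.10 and 0.28 ± 0.11 had DESeq2 adjusted p of 0.223 and 0.131, the latter passing in edgeR and with culture as a block (0.40). Without S9CC13_R6 or S9CC47_R5 the call between 3h and 24h was lost, with values between 0.40 and 0.94 over all alternatives. FLRT2, of the same family as FLRT3, ran from 48.3 to 75.1 CPM and was not called in T>C reads.

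SPRY1, DUSP6, FLRT3 and IL17RD had fitted values below 0h at 3h, of which that of DUSP6 passed the test, and above 0h at 24h. Their steps from 3h to 24h, 0.93, 0.91, 1.04 and 0.57 on the log2 scale, were upward in 3 of 3 cultures for each gene. These genes were named because that step was called, so its direction in each culture is no separate evidence. The 3h differences within cultures were less even, at -0.20, 0.03 and -0.67 for SPRY1 and -0.43, -0.67 and 0.05 for IL17RD. For FLRT3 they were -0.19, -0.04 and -0.12, with overlapping groups. SPRED2, not called in T>C reads, had later steps of 1.20, 0.30 and 0.96. Its 3h differences were small, at -0.11, -0.16 and -0.14 with overlapping groups, and in total reads they were 0.12, -0.18 and -0.02. The difference at 3h and the later step use the same 3h samples and are not independent.

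The T>C share of a gene's reads at 0h describes how much of its RNA was new after the 2 h of label. It is higher for short-lived RNA, and it also depends on how many T positions the counted 3′ region offers, for which no correction was made. Over the 10642 genes with a mean of at least 50 total reads, the median share was 27.1% (5th to 95th percentile 8.17% to 59.6%). Of the 25 FGF and ERK feedback genes with that depth, 21 were above this median and 12 above the 90th percentile, with a median of 51.9%. High shares were not particular to this set. Immediate-early ERK targets had a median of 52.5%, with 7 of 7 above the all-gene median, and CNCC markers had 43.6%, with 9 of 10. The relay from RAS to ERK had 33.5%, with 14 of 24, and heparan sulphate core protein genes had 19.7%, with 2 of 11. DUSP1 was highest at 82.3% ± 6.05 (SD, n = 3), followed by DUSP6 at 65.9% ± 1.84, DUSP7 at 64.1% ± 4.07 and DUSP5 at 64.0% ± 10.1, and the latter 3 did not differ beyond their spread. SPRED1, FLRT3, SPRY4 and PHLDA1 lay between 62.0% and 62.3%. FGFR1 was at 19.9% ± 1.07, ETV4 at 10.2% ± 0.27 and FGF11 at 9.61% ± 2.65. The class medians ran from 16.7% in the intracellular factors over 37.5% in receptors and adaptors and 44.8% in the ETV genes to 55.1% in SPRY and SPRED and 64.1% in the DUSP genes.

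**Figure D3:**
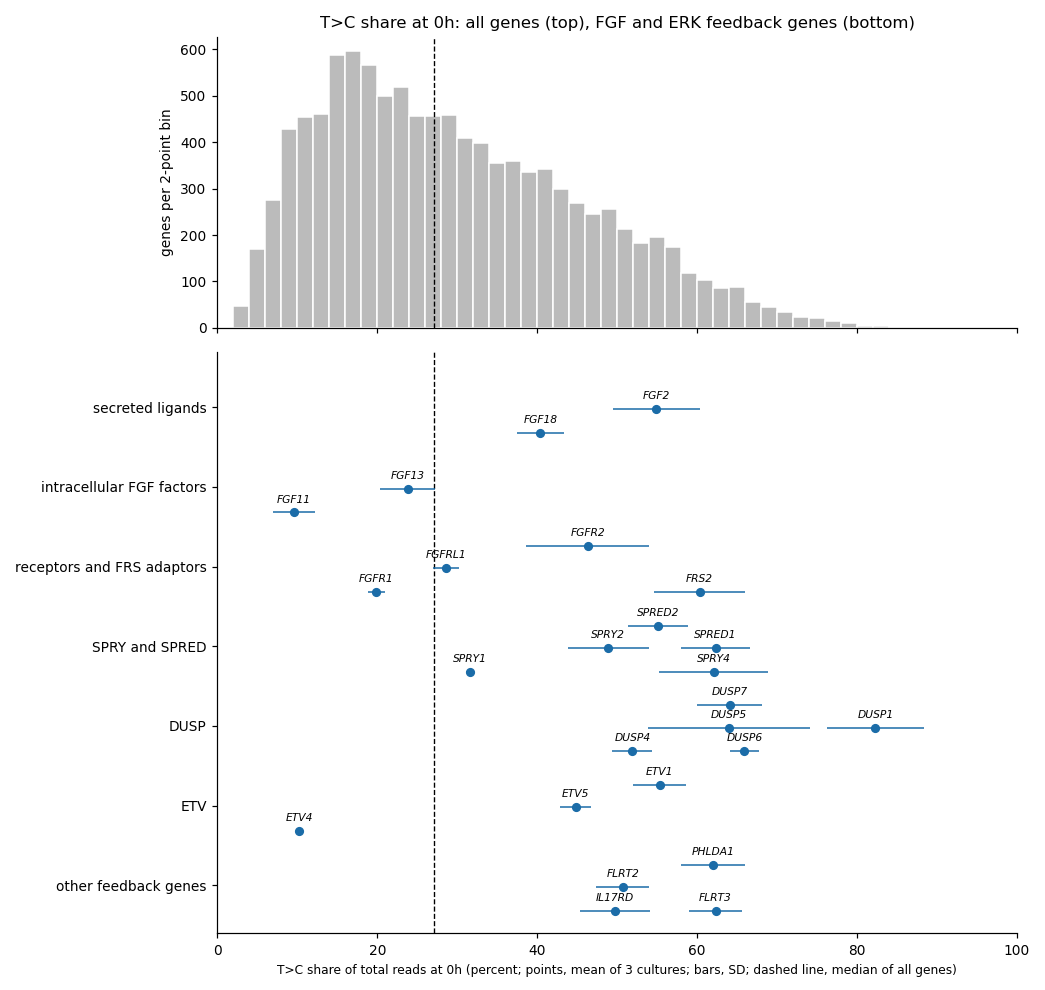
Percent of a gene's total reads that carry a T>C conversion at 0h. The upper panel counts all 10642 genes in bins of 2 points, and the lower panel shows the 25 FGF and ERK feedback genes by class (points, mean of 3 cultures; bars, SD; dashed line, the all-gene median of 27.1%). The DUSP genes sit at 51.9% to 82.3%, while FGFR1, ETV4, FGF11 and FGF13 lie left of the line.

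The AU-rich letters TATTTAT, known from 3′ UTRs of short-lived RNAs, are shown for 5 of the genes with values above. Each line is a 30-base window of the 3′ UTR of the canonical transcript (GENCODE 44, hg38), with the motif in capitals.

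DUSP1 3′ UTR, chr5:172768643-172768672, - strand: agggctggtcctTATTTATttaacttcacc

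PHLDA1 3′ UTR, chr12:76029882-76029911, - strand: caagaagactttTATTTATgaacctttgaa

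SPRY4 3′ UTR, chr5:142312397-142312426, - strand: tgtaaccataggTATTTATtgattggagga

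SPRED1 3′ UTR, chr15:38351959-38351988, + strand: ggcatttttgtaTATTTATgcattaggtga

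FGF18 3′ UTR, chr5:171457284-171457313, + strand: tttgcagtcattTATTTATtgtccgctgca

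The whole 3′ UTRs hold 3 copies in DUSP1, 3 in PHLDA1, 4 in SPRY4, 5 in SPRED1 and 2 in FGF18. Of the 25 genes with a share, 17 hold at least 1 copy (68%), against 37.6% of the 10636 genes with a share and a 3′ UTR. Those 3996 genes had a median share of 34.1%, and the 6640 genes without the letters had 22.5%. The other 8 hold no copy. Of these FGF11 had a share of 9.61%, ETV4 of 10.2% and FGFR2 of 46.3%, and DUSP5, DUSP6, DUSP7, FLRT3 and IL17RD had shares of 49.7% to 65.9%. SPRY1, with 3 copies, had 31.6% ± 0.50. Longer 3′ UTRs hold any motif more often, and length was not matched.

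Among 86 other genes of the pathway, 66 were tested in T>C reads. At 3h 3 changed, against 1.79% of all genes, with JUNB up and ERBB3 and IER3 down. At 24h 9 changed, against 4.98% of all genes, with CBL, EGR1, IER2, JUNB and NRAS up and ERBB3, FGFBP3, IER3 and LRIG1 down. The relay from RAS to ERK had 0 of 24 genes called at 3h in DESeq2 and in edgeR (3 and 4 at an unadjusted p under 0.05) and 2 of 24 at 24h, CBL and NRAS, against the 4.98% of all genes. IER3, an immediate-early gene, had 427 to 487 T>C CPM at 0h, 206 to 293 at 3h and 214 to 273 at 24h, a log2 change of -0.90 ± 0.11 and -0.88 ± 0.11. EGR1, an immediate-early transcription factor, stood at 16.1 to 24.3 CPM at 0h, 17.8 to 23.0 at 3h and 28.4 to 64.9 at 24h, a rise of 1.20 ± 0.29 at 24h (adjusted p = 0.00183 in DESeq2). JUNB, a subunit of AP-1, had 6.06 to 12.3 CPM at 0h, 12.8 to 21.0 at 3h and 12.2 to 20.5 at 24h. Of 10 immediate-early targets tested, 2 were called at 3h, 1 in each direction, and 4 at 24h, 3 up and 1 down.

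ERBB3, a receptor of the EGF receptor family for neuregulins, had 8.87 to 11.1 T>C CPM at 0h, 0.83 to 2.87 at 3h and 0 to 0.69 at 24h, and its log2 change was -3.28 ± 0.71 and -4.26 ± 0.86 (adjusted p = 4.66e-04 and 7.15e-05 in DESeq2). It is expressed in Schwann and melanocyte lineages too. Their marker sum was 4.78 to 7.26 CPM at 0h, 5.09 to 7.07 at 3h, where ERBB3 was already low, and 2.69 to 3.93 at 24h. The part of that shift in the ERBB3 values was not tested. FGFBP3, a secreted protein that releases FGFs from heparan sulphate, went from 13.8 to 28.5 CPM at 0h to 8.62 to 11.1 at 24h (-1.33 ± 0.31, adjusted p = 0.00118 in DESeq2). Of 11 heparan sulphate core protein genes, 0 were called at 3h or 24h in T>C reads by DESeq2 or edgeR. In DESeq2 0 and 3 had an unadjusted p under 0.05, and the shares called over all genes were 1.79% and 4.98%. In total reads 6 were called at 24h, 4 up and 2 down, against 15.0% of all genes.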

How the data were processed

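SLAM-seq 3′ end libraries of 9 samples were analysed. Per the labels, the authors trimmed the reads, aligned them to hg38 and counted T>C and all reads per gene with slamdunk, and the deposited tables hold these raw counts. The counted 3′ regions and the strand setting are not given in the sources used here. Genes were matched to GENCODE 44 by symbol. The 38 genes and all lists were chosen with earlier results of these data known, and genes called in T>C reads were given in full. Tests covered protein-coding genes that reached 1 CPM in 3 samples or more, and were run with DESeq2 1.42.0 (R 4.3.3; batch, 1 surrogate variable from sva 3.50.0, time; all 9 samples), without independent filtering, at an adjusted p under 0.1. Fold changes are relative to the size factors of each measure. Alternatives were edgeR 4.0.16, TMM factors, size factors from total reads, no surrogate variable, other filters, an adjusted p under 0.05, culture as a block, only the 6 samples compared, and leaving out each culture. Each number in the labels marks 1 culture, split over the 3 times, which pairs the samples. Deviations of same-culture samples correlated at a mean r of 0.13 in T>C and 0.27 in total reads. Within-culture changes are differences in log2 of size-factor-normalised counts plus 1. Intervals are at 95%, and library depth, 17.0 to 28.8 total reads in units of 1000000, limits genes near 1 CPM.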

Additional observations from a re-analysis of the deposited data

Results flagged for a closer look

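For 6 genes the change from 0h differed between 3h and 24h by the DESeq2 test of 24h against 3h. On the log2 scale the difference, 24h minus 3h, was 0.39 in T>C reads and 0.38 in total reads for FGF18, 0.93 and 0.71 for SPRY1, 0.91 and 0.88 for DUSP6, 1.04 and 1.01 for FLRT3 and 0.57 and 0.53 for IL17RD. For DUSP5 it was 0.91 in total reads. All 11 differences were upward, but T>C reads are part of total reads, so the measures are not independent. Over all genes this comparison called 65 up and 72 down in T>C reads, of 12037 tested. In total reads it called 294 up and 337 down, of 11710 tested.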

How the results depend on the processing

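The culture block, which uses the pairing, gave 5, 11 and 8 calls in T>C reads (3h, 24h, and 24h against 3h; 6, 10 and 5 without it) and 4, 13 and 9 in total reads (6, 14 and 6 without it). A fit of only the 6 samples compared gave 8 calls in total reads at 24h. With 1 culture left out, calls in T>C reads ranged from 3 to 4 at 3h, 1 to 5 at 24h and 2 to 3 between them, and in total reads from 4 to 4, 4 to 7 and 3 to 5. The value for DUSP7 in total reads at 3h reversed to -0.22 without S9CC47_R6. The causes were not tested, though fewer samples enter the last 2 kinds of fit. The share of all genes called is not given for any alternative fit, so these counts have no background beside them. Over the results for single genes, 429 kept direction and call, 108 kept direction and lost the call, and 26 gained one. FLRT2 in total reads at 24h lost its call under 8 of 11 alternatives and DUSP1 under 7 of 11. FGF18 and PHLDA1 at 3h and DUSP6 between 3h and 24h kept theirs in both measures under every alternative run. Depth limits FGF7, FGF9, FGF10, FGFR3, FGFR4, SPRED3 and DUSP10, all of which stood below 6 T>C CPM.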
